A study of Mus musculus with 14 samples.

Results

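The Ntn4 locus of mouse chromosome 10 was described by the H3K27ac and H3K27me3 peaks that 10 deposited lists held between 93430000 and 93630000 in build mm39. The locus was selected on its H3K27ac values. It was picked for a long run of 10 kb bins with more bases under H3K27ac peaks in knockout than in control libraries, from 93480001 to 93580000, although 1 of the 10 bins had no covered base in any library. The difference in H3K27ac between genotypes is therefore a description. Where calls of a fit over the whole genome are counted at the locus, they lend it no support. The window held 104 of the 309136 peaks in all lists, of which 97 were H3K27ac and 7 were H3K27me3. Merging the 97 H3K27ac peaks gave 26 regions, named R1 to R26 in order of position, of 37573 in the genome.

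The lists came from CUT&Tag, in which an antibody against a histone mark tethers a transposase that cuts out the marked fragments for sequencing. Regulatory T cells were sorted from knockout mice, written Foxp3YFP-Slc31a1△;wt in the labels, and from control mice, written Foxp3YFPcre;wt. The titles call the mice of both genotypes chimeras, both carry YFP tied to Foxp3, and both end in wt, which the labels do not explain. No strain or age is given. H3K27ac lists belonged to 3 knockout and 3 control libraries and H3K27me3 lists to 2 knockout and 2 control libraries, each from 140000 cells. Libraries of the same mark and genotype carry different chimera numbers, and each number recurs in the other genotype. H3K27ac libraries carry chimera numbers 2, 3 and 4 in both genotypes, and H3K27me3 libraries carry 1 and 2. The labels do not say whether a number stands for a single animal or links libraries of both genotypes. The p-values therefore cover only the spread between these libraries. Cre expressed from Foxp3 is meant to limit the deletion of Slc31a1, the gene of the copper importer CTR1, to cells that express Foxp3. The control label names Cre and the knockout label does not, and the deletion was not checked here. Markers of regulatory T cells were not checked, because gene positions in mm39 were not used here. H3K27ac lists held between 21326 and 28289 peaks in knockouts and between 27986 and 32012 in controls. The H3K27me3 list of control 1 stood apart, with 7512 peaks reaching a −log10 p of only 7.21, where the other lists started above 9.

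Ntn4 encodes netrin-4, a secreted protein related to laminins that is built into basement membranes and is best known from blood vessels and nerve growth. H3K27ac is placed by acetyltransferases at active promoters and enhancers, and H3K27me3 by Polycomb repressive complexes at silent genes. Both sit on the same lysine, so a single histone tail carries one or the other. In the GRCm38.p6 RefSeq annotation, Ntn4 spans 104924 bp on the plus strand of chromosome 10. A lncRNA, Gm15915, and a pseudogene, Gm8580, lie inside it, and its nearest protein-coding neighbours are Snrpf before it and Usp44 after it. Those positions belong to another build than the lists, so no region was assigned to the Ntn4 promoter or to a part of the gene.

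The promoter is shown because its base composition bears on both marks, which gather at promoters rich in CpG pairs. The 250 bases before the Ntn4 start in RefSeq, at chr10:93640799-93641048 of GRCm38.p6 on the plus strand, are printed with CpG pairs in capitals.
Ntn4 promoter: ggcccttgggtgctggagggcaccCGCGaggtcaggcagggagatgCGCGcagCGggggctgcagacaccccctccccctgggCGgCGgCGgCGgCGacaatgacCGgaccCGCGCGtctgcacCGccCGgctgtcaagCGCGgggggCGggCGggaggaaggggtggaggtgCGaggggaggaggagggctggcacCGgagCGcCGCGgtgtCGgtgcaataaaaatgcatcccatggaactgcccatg
They held 26 CpG pairs, against a median of 6 over the 32851 promoters of the same table, 90.4% of which held fewer. G and C made up 73.2% of the bases, against a median of 52.4%. The GC box core, GGGCGG, occurred 4 times over both strands and was found in 32.7% of all promoters. The core TGCGCNC, one form of the metal response element, occurred on each strand, at overlapping places, and was found in 12.5% of promoters. Its other form, TGCACNC, was not in these letters and was found in 10.4% of promoters. The CCAAT box, CCAAT, and the E-box, CANNTG, were not in them either, and were found in 33.8% and 66.2% of promoters. All motifs were searched on both strands.

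H3K27ac peaks were more numerous at the locus in every knockout library than in any control library. The knockouts had 29, 24 and 19 peaks, against 9, 8 and 8 in the controls, means of 24 ± 5 and 8.33 ± 0.577 (SD, n = 3 each). Bases under peaks came to 32660, 40777 and 33373 in the knockouts and to 12781, 12035 and 12055 in the controls. The means of 35603 ± 4495 and 12290 ± 425 bases (SD, n = 3 each) stood in a ratio of 2.90. Over the whole genome the knockout lists covered 0.987 times the bases of the control lists and held 0.822 times as many peaks. Peaks at the locus were also wider in the knockouts, with median widths of 799, 1096 and 1094 bp, against 625, 670 and 740 bp in the controls. The widths did not overlap between genotypes, which was also so for the whole lists, whose medians averaged 967 bp in knockouts and 826 bp in controls.

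**Figure D1:**
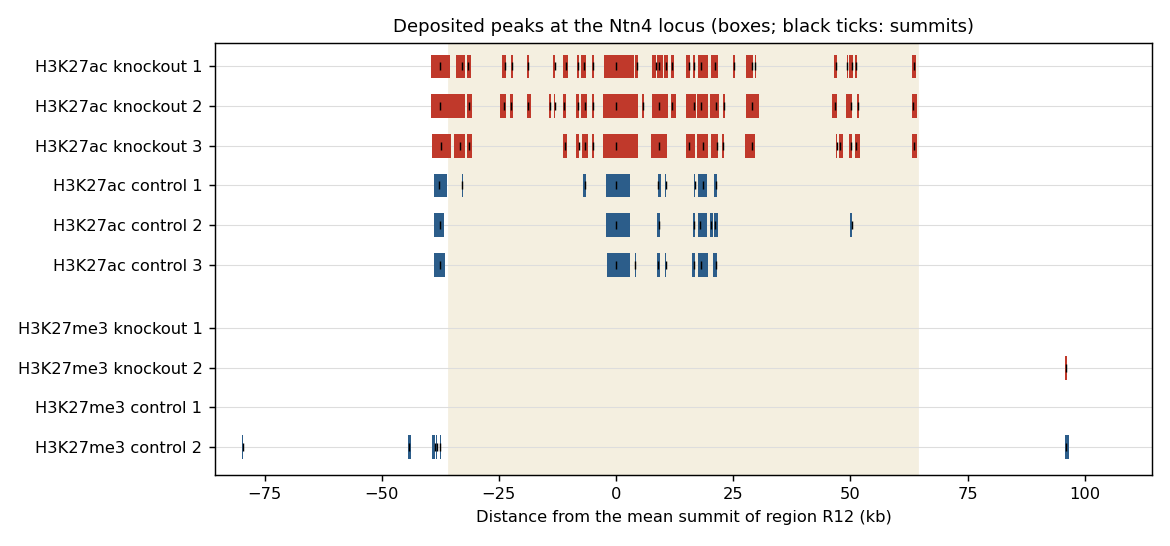
Peaks of the 10 lists (boxes) and their summits (black ticks) along the window, against the distance in kb from the mean summit of region R12, with knockout lists in red above control lists in blue and the stretch from 93480001 to 93580000 shaded. Knockout lists hold H3K27ac peaks across the shaded stretch where most of the control peaks gather in its middle, and the H3K27me3 peaks lie outside the stretch.

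**Figure D2:**
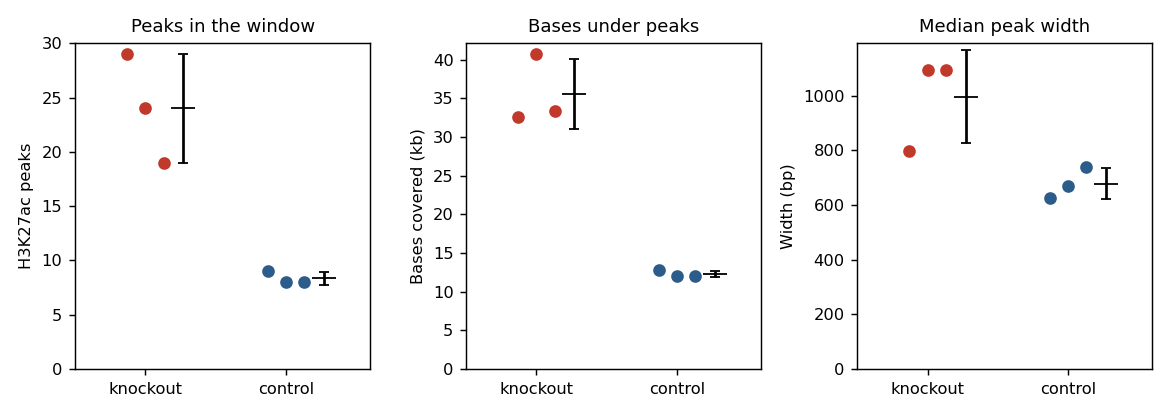
H3K27ac peaks in the window, kilobases under them and their median width in bp for each library (points), with the mean and SD of 3 libraries beside them. All 3 knockout values lie above all 3 control values in each panel.

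The first base under an H3K27ac peak was at 93475966 and the last at 93579702, a span of 104 kb. The next peak before the locus ended between 93303885 and 93425493 in the knockouts and between 93425427 and 93425489 in the controls. The next peak after it began between 93719320 and 93724900 in the knockouts and between 93704058 and 93704240 in the controls. No H3K27ac list held a peak between 93425493 and 93475966 or between 93579702 and 93704058.

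At the locus, where the knockout lists covered more bases, nearly all bases under control peaks also lay under knockout peaks. Of the knockout bases at the locus, between 29.3% and 38.5% lay under peaks of a given control list. Of the control bases, between 95.8% and 100% lay under peaks of a given knockout list. All 3 knockout lists shared 26819 bases, and all 3 control lists shared 9972, of which 9967 were common to all 6. No base was shared by all controls and missing from all knockouts, while 12252 bases were shared by all knockouts and missing from all controls. Of the 26 regions, 8 had peaks in lists of both genotypes, 18 in knockout lists only and 0 in control lists only. Of all merged regions, 13.9% had peaks in knockout lists only, and as the choice of the locus used this contrast, nothing is read from the difference. Shares over the genome were not counted for the overlaps of single lists, the bases shared or missing by genotype or control-only regions. Nothing is read from those overlaps and counts either. The regions of both genotypes made up 53.6% of the difference in covered bases and the knockout-only regions 46.4%.

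Region R12, from 93512716 to 93520264, had the highest −log10 p of the locus in every list. It ranked between the 96.9 and 98.8 percentile of its list by −log10 p in the knockouts and between the 86.3 and 94.1 percentile in the controls. Its peaks covered 6919, 7532 and 7461 bases in the knockouts and 5172, 5135 and 5181 in the controls. The genotypes did not overlap, and the SD among the 3 controls was 24.4 bases. The summits of the 6 lists fell within 160 bp of each other.

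Region R1, from 93475966 to 93483289, was the first of the locus and lay mostly before the stretch that the choice named. Knockout peaks covered 6078, 7200 and 6213 of its bases, against 3088, 2085 and 2428 in the controls. The lowest knockout was well above the highest control. Its summits lay within 364 bp of each other over the 6 lists. Region R14, from 93523008 to 93526536, had 2818, 3267 and 3456 covered bases in the knockouts and 967, 575 and 877 in the controls, again without overlap.

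Regions R16, R17 and R18, between 93530502 and 93537504, lay beyond it, and every list held all 3. R17 differed least, with 2193 ± 60.9 bases under peaks for knockout against 2003 ± 81.0 for control libraries (SD, n = 3 each). R16 had 1672 ± 411 and 500 ± 114, and R18 had 1716 ± 162 and 966 ± 359 (SD, n = 3 each). In all 6 regions found in every list, each knockout covered more bases than each control, against 12.0% of the 13106 regions of the genome that every list held. Nothing is read from that count, which comes from the contrast that chose the locus.

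The height of a peak was read back as the number of fragments at its summit. The deposited fold enrichment and −log10 p together fix that number and the background fragments it was set against. Each of 500 peaks tried per H3K27ac list gave a whole number. Since libraries differ in depth, heights are given as multiples of each list's own median over those 13106 regions, which was 98, 97 and 60 fragments in knockouts 1 to 3 and 103, 64 and 73 in controls 1 to 3. R12 had 307, 322 and 204 summit fragments in the knockouts and 114, 78 and 98 in the controls. That was 3.28 ± 0.137 times the list median for knockout and 1.22 ± 0.118 times for control libraries (SD, n = 3 each), a ratio of 2.69. R1 stood at 2.11 ± 0.183 and 0.760 ± 0.0355, a ratio of 2.78, and R14 at 1.47 ± 0.0387 and 0.532 ± 0.0705, a ratio of 2.76 (SD, n = 3 each). At these 3 regions every knockout stood above every control.

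The genotypes were closer in height at R16, R17 and R18. R18 had 0.712 ± 0.139 times the list median for knockout and 0.337 ± 0.0526 for control libraries (SD, n = 3 each), without overlap. R17 had 0.994 ± 0.226 and 0.652 ± 0.177, and R16 had 0.410 ± 0.135 and 0.296 ± 0.106 (SD, n = 3 each). Summits of the 6 lists lay within 1264 bp of each other in R16, 669 bp in R17 and 383 bp in R18. The heights of such a region may thus belong to different places within it. In R16 and R17 the lowest knockout fell below the highest control, so that these 2 overlapped between genotypes. Heights were thus separated at 4 of the 6 regions, against 8.36% of the 13106. Over the 13106 shared regions, the ratio of knockout to control height had a median of 1.02 and lay between 0.692 and 1.41 from the 5th to the 95th percentile. Ratios above that of R12 were found in 6 of them, R1 and R14 included. The choice of the locus used the H3K27ac contrast between genotypes, so nothing is read from these counts of heights and ratios.

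Background fragments differed between the lists too. At the R12 summit the background was 22.4, 25.9 and 15.4 fragments in the knockouts, against 14.6, 2.40 and 2.42 in the controls. Set against each list's own median over shared regions, these were 1.73, 1.81 and 1.46 times in knockouts and 0.833, 0.285 and 0.271 times in controls. Every knockout background was above every control background at 4 of the 6 shared regions in fragments and at 5 of 6 relative to the list median. The share of the 13106 regions where this held was not counted, so nothing is read from these counts. The fold enrichment of R12, the ratio of summit to background, was lower in the knockouts than in controls 2 and 3. It was 13.2, 11.98 and 12.5 in the knockouts and 7.35, 23.3 and 28.9 in the controls. At R1 the fold was 12.7, 11.5 and 9.92 in the knockouts and 2.68, 6.96 and 6.86 in the controls, without overlap. The low value of control 1 went with a background of 28.5 fragments, 1.62 times its list median. The knockout backgrounds there were 1.23, 1.26 and 1 times the list median, and those of controls 2 and 3 both 0.769 times. Only 2 of the 6 shared regions, R1 and R14, had every knockout above every control by fold, against 6.68% of the 13106. As the locus was chosen by the H3K27ac contrast, nothing is read from that count. At R16 and R18 the backgrounds of controls 2 and 3 were 2.09 and 2.11 fragments, the lowest of their lists. The series holds 3 IgG libraries of controls and 1 of knockouts, and the sources used here do not say which served as background. The background values of the 3 knockouts may therefore not rest on separate background libraries. The part that the background libraries had in the lengths and heights of peaks was not tested.

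**Figure D3:**
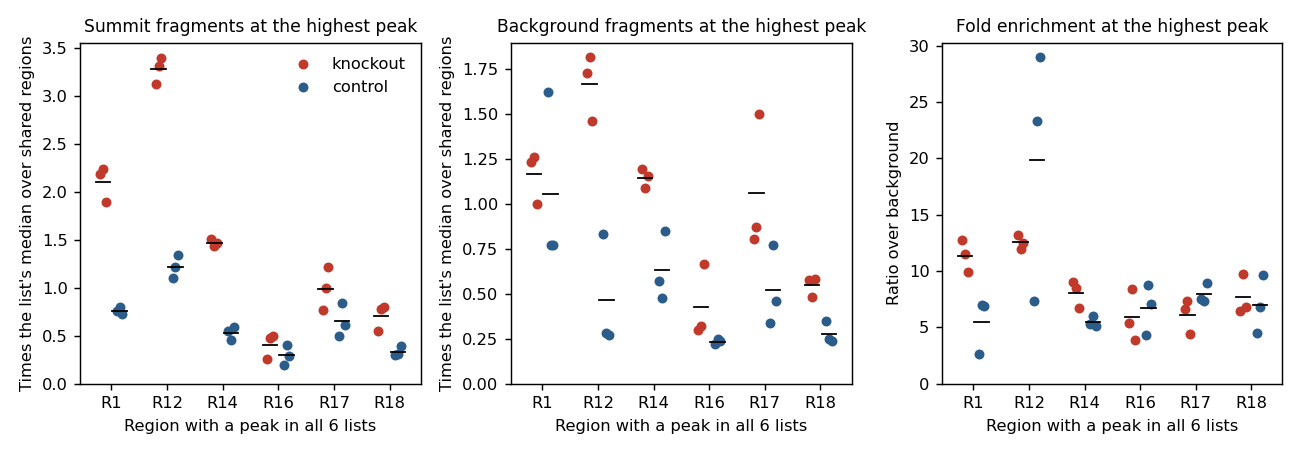
For the 6 regions with a peak in all 6 H3K27ac lists, the highest peak's summit fragments and background fragments, both as multiples of the list's median over shared regions, and its fold enrichment, for 3 knockout (red) and 3 control (blue) libraries, with the mean as a line. Summit fragments at R1, R12 and R14 are separated by genotype, while the fold enrichment of R12 is highest in controls 2 and 3.

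Regions acetylated in knockout lists only lay between and after the regions found in every list, and none lay before R1. At 8 of the 26 regions every knockout list and none of the control lists had a peak, as at 0.809% of all merged regions. The choice of the locus used this contrast, so nothing is read from that share. They were between 470 and 2893 bp long, with 18 to 46 summit fragments in the knockout lists. Among the peaks of lowest −log10 p in each control list, the lowest summit was 13, 11 and 11 fragments. That floor is for whole lists at any background and is not scaled for depth. It does not say whether a control would have had a peak called at these regions. The −log10 p of the 8 regions lay between the 3.79 and the 72.1 percentile of the knockout lists.

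The longest region of this kind was R21, from 93543161 to 93546053, with 1899, 2869 and 1972 covered bases in the knockouts and 0 in each control. Its highest summits fell within 1 bp of each other in the 3 knockout lists. R26, from 93578602 to 93579702, was the last acetylated region of the locus and stood 11062 bp beyond R25. It had 41, 46 and 30 summit fragments in the knockouts over a background of 2.73, 3.05 and 2.57, near the lowest background of each list. Its fold enrichment of 11.3, 11.6 and 8.69 in the knockouts stood beside 13.2, 11.98 and 12.5 at R12. No control list held a peak at R26.

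The other 6 of these regions were shorter than R21, and each had 0 covered bases in all 3 controls. R2, from 93483691 to 93484910, followed R1 and had 936, 1220 and 1094 covered bases in the knockouts. R8, from 93504128 to 93505244, had 990, 819 and 750, and R9, from 93506939 to 93507718, had 410, 780 and 723. R11, from 93510410 to 93510879, lay just before R12, with 361, 460 and 465. R22, from 93561678 to 93562780, had 760, 1103 and 354, and R25, from 93566514 to 93567539, had 447, 470 and 1026. Knockout 1 was the lowest of the 3 in R2, R9, R11 and R25, and knockout 3 the lowest in R8 and R22.

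The remaining regions were held by fewer libraries. R10, from 93508090 to 93509595, had 1070, 1308 and 1386 covered bases in the knockouts, against 570 in control 1 and 0 in the other controls. R24, from 93564603 to 93566153, had 1074, 1352 and 508 in the knockouts, against 386 in control 2 and 0 in the other controls. A further 6 regions had peaks in 2 knockout lists and 4 in a single one, with no control peak. Knockout 3 had no peak between 93490001 and 93500000, where knockouts 1 and 2 covered 1385 and 2676 bases. No list held a peak in the 15624 bp between R21 and R22.

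In 10 kb bins, the higher covered length of the knockouts ran over most of the stretch. Of the 20 bins of the window, 9 had a covered base in at least 3 H3K27ac libraries and were tested. Of these, 2, from 93540001 and from 93570001, had no covered base in any control and passed through the knockouts alone. In all 9 every knockout was above every control, against 9.64% of the 19295 bins tested in the genome. A limma fit over the whole genome called 6 of the 9 higher in knockouts at a Benjamini-Hochberg adjusted p under 0.05, and 0.580% of all bins tested. The locus was chosen by these same values, so the calls are no test of it and nothing is read from either count. Calls also depended on single libraries, over the whole genome as at the locus. Without knockout 2 the limma fit called 0 bins of the locus and 0 of the genome higher. At an unadjusted p under 0.05, 7 of 7 tested bins of the locus and 589 of 18599 in the genome were higher. The bins from 93540001 and from 93570001 were then no longer tested. Without control 2 the calls were 0 and 0, with 9 of 9 bins of the locus and 877 of 18284 at that unadjusted p. Without control 3 they were 0 and 1, with 9 of 9 and 1071 of 18063. These unadjusted counts also come from the contrast that chose the locus, and nothing is read from them. Without knockout 3 the calls were 1 at the locus and 1 in the genome, without control 1 they were 2 and 3, and without knockout 1 they were 4 and 232.

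Bins at the edges show where the choice drew its line. The first bin of the stretch, from 93480001, had 2979, 4509 and 3629 covered bases in the knockouts and 356, 0 and 0 in the controls. The bin just before it, from 93470001, was left out of the stretch though it too had no overlap, with 4035, 3911 and 3678 bases in the knockouts and 2732, 2085 and 2428 in the controls. The last bin, from 93570001, had 890, 1088 and 1028 bases in the knockouts and 0 in each control, and the bin after it had 0 in all 6. Inside the stretch, the bin from 93550001 had no covered base in any library.

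**Figure D4:**
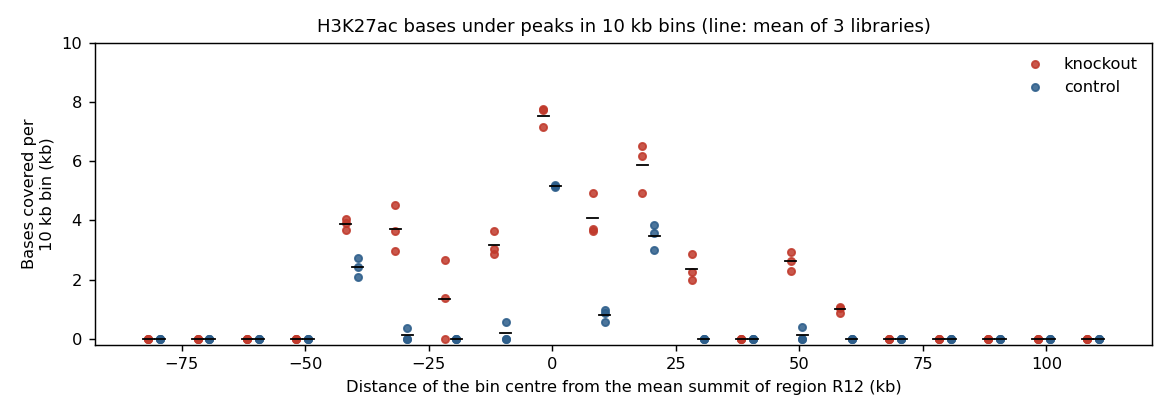
Kilobases under H3K27ac peaks in each 10 kb bin of the window for 3 knockout (red) and 3 control (blue) libraries, with the mean as a line, against the distance of the bin centre from the mean summit of region R12 in kb. Knockouts lie above controls in all 9 bins covered in at least 3 libraries.

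H3K27me3, which the choice of the locus did not use, was absent from the lists over the whole stretch. None of the 4 libraries had a base under an H3K27me3 peak between 93480001 and 93580000. In the full window, covered bases were 0 and 385 in the knockouts and 0 and 2917 in the controls, means of 192.5 ± 272 and 1458.5 ± 2063 (SD, n = 2 each, two-sided exact permutation p = 1, where 0.333 is the smallest possible). Peaks numbered 0 and 1 in the knockouts and 0 and 6 in the controls, with the same exact permutation p of 1. All of the control value came from control 2, and without it the knockouts had 192.5 more bases than the remaining control. Control 1 is the library whose list held 7512 peaks. Of 20 bins, 1 was covered in at least 2 libraries, from 93610001 to 93620000. Its limma log2 change was -1.45 (SE 1.29, n = 2 each, adjusted p = 0.581), so 0 bins were called and 0 had an unadjusted p under 0.05, against 0.300% called of all H3K27me3 bins tested. The median log2 change of all those bins was 0.78, or 1.82 without centring, where this bin stood at -0.41. There knockout 2 and control 2 shared a peak, with summits at 93611575 and 93611576.

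The other 5 H3K27me3 peaks of control 2 lay before the stretch. One was from 93435781 to 93436052, one from 93471162 to 93471837, and 3 lay inside R1, from 93476208 to 93478234. Neither knockout list had a peak there. The H3K27me3 peaks of control 2 shared 642 bases with H3K27ac control 1, a library of the same chimera, and 1095 bases with the H3K27ac peaks that all 3 knockouts shared. Across the genome these control libraries of chimera 2 had 5563 bases under both marks, at 12 H3K27ac peaks, so that R1 held 11.5% of them in the 4th longest overlap. In the knockout libraries of chimera 2, 8546 bases at 20 peaks were under both marks, and 0 of them lay at this locus. A single control library shows this overlap, so it has no replicate check.

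Among other stretches of 100 kb, those most like the locus in H3K27ac covered bases over the 6 libraries were named by the smallest root mean square difference on a log2 scale with 100 bases added. The closest was on chromosome 4 from 62450001 to 62550000, at a difference of 0.267, with 24570 ± 3257 bases for knockout and 10391 ± 381 for control libraries (SD, n = 3 each). The next were on chromosome 12 from 99280001 to 99380000, at 0.383, and on chromosome 17 from 85270001 to 85370000, at 0.418. Chromosome 12 from 99410001 to 99510000, at 0.444, and chromosome 6 from 30220001 to 30320000, at 0.457, followed. In all 5 the knockout mean was above the control mean, by between 10295 and 14179 bases, less than the 21853 bases of the Ntn4 stretch. Of 81023 stretches with a covered base, 8 had a larger difference than the Ntn4 stretch, and 1 of these overlapped it. The Ntn4 stretch was chosen by the same contrast, so nothing is read from its rank. The stretches started on every 10 kb boundary and so overlapped their neighbours, and the 8 need not be separate loci. The largest difference, 29456 bases, was on chromosome 17 from 52050001 to 52150000. Likeness over 6 libraries is a description and was not tested.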

How the data were processed

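Peaks of 10 libraries were used. Per the submitters' processing notes, reads were handled with Bowtie2 2.2.4, deepTools 3.5.1, MACS2, ChIPseeker 1.30.3 and HOMER 4.11 in build mm39. Settings and the background library are not given in the sources used here. The authors deposited 1 list per library, with a whole-number score, the fold enrichment as a ratio and p and q values as −log10, each of which belongs to a peak within its own list. Reads and IgG libraries were not used here.

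Covered bases are merged bases under peaks. Overlaps counted from 1 bp. For limma 3.58.1 in R 4.3.3, bases per 10 kb bin over the genome were taken as log2(bases + 100), centred on bins covered in every library, and fitted per mark with trended, robust variances, for bins covered in at least 3 H3K27ac or 2 H3K27me3 libraries, after tests on simulated data. Summit fragments x and background b were solved from fold = (x + 1)/(b + 1) and a Poisson p, and were whole to within 0.05 of 1 fragment's step. They carry counting error besides the spread given. For H3K27me3, knockout 1 gave whole fragments in 100% of 500 peaks, but knockout 2, control 1 and control 2 gave them in 10%, 1% and 10.8%, so no H3K27me3 heights are given.

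The locus, lists and tests were chosen with earlier results of these data known. Every merged region was counted, those with a peak in every library of a genotype were described, and the 5 most alike 100 kb stretches were named. No mm39 annotation was used, so the planned marker genes, netrin pathway genes and the targeted gene were not analysed here. Alternatives were lists of equal length, a minimum enrichment, other bins, pseudocounts, filters and normalizations, joined peaks, a replicate block and leaving out each library.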

Additional observations from a re-analysis of the deposited data

How the results depend on the processing

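The differences in H3K27ac covered bases and peaks kept their direction under all alternatives run. Every knockout stood above every control in both, so leaving out 1 library could not turn the direction. The minimum enrichment left the values at the locus unchanged. The locus was also chosen by this contrast, so the kept direction lends the difference no support. Without 1 library, the knockouts had between 20726 and 24785 more bases in the window, between 19285 and 23405 more in the stretch and between 13.2 and 18.2 more peaks. With peaks under 1 kb apart joined they had 7.33 more peaks, against 15.7 as deposited. The number of bins called higher in the window was 6 as reported, where the genome had 112 of 19295. It was 1 with a pseudocount of 10 bases, where the genome had 4, and 3 of 3 in 50 kb bins, where the genome had 56 of 9952. Without 1 library it was between 0 and 4, where the genome had between 0 and 232. The cause of these changes was not tested. In the other 7 settings the count was between 5 and 8, where the genome had between 58 of 24912 and 254 of 16934. The bins tested in the window were 10 with no filter, 15 in 5 kb bins and 9 in the rest of these settings. With the replicate block the count was 1, where the genome had 3. All these counts come from the contrast that chose the locus, and nothing is read from them. Pairing by equal replicate numbers, which match the chimera numbers between genotypes, was not clear. Deviations of same-numbered H3K27ac libraries correlated at 0.246, 0.0530 and 0.0102, the first of which was the highest of all pairs. Knockout 2 correlated better with control 3, at 0.0886, and knockout 3 with control 2, at 0.177. For H3K27me3 the value was 0.00261, but with 2 libraries per genotype all pairs have the same size, so it decides nothing.

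H3K27me3 differences turned round without control 2, to 192.5 more bases and 0.5 more peaks in the knockouts. Without 1 library they ranged from -2724.5 to 192.5 bases and from -5.5 to 0.5 peaks. With lists of equal length both differences were 0, since no H3K27me3 peak of the window was among the 7512 highest of its list. The number of H3K27me3 bins called was 0 in all 10 alternatives that gave a value. With lists of equal length, in 50 kb bins, and without knockout 2 or control 2, no H3K27me3 bin of the window could be tested. The fit with no centring, and the results for the shorter stretch, were added after seeing the data.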
